A study of Rattus norvegicus with 6 samples.

Results

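CDK inhibitor, Mdm2 and GADD45 genes were examined in RNA from rat Schwann cell precursors (SCPs) and repair Schwann cells (RSCs). The 9 genes were chosen by name, namely Cdkn1a, Cdkn1b, Cdkn2a, Cdkn2b, Cdkn2c, Mdm2, Gadd45a, Gadd45b and Gadd45g, out of 29468 gene symbols in the deposited tables. The 3 SCP samples came from sciatic nerves and brachial plexus of untreated embryos at embryonic day 14, and the 3 RSC samples from the distal stump of sciatic nerves of adult rats, 10 weeks old by the labels, taken 1 week after the nerve was cut. All samples are labelled as LEWIS strain and wild type, whereas the methods describe the donors of grafted cells as transgenic LEWIS rats with ubiquitous RFP. Both kinds of cell were freed enzymatically from nerve and kept only if they stayed afloat in uncoated flasks, and the RSC nerves were digested for longer and in more collagenase. The number of animals behind a sample is not given in the sources used here, so p-values measure the spread between these preparations only.

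Cyclin-dependent kinases (CDKs) drive cells from G1 into DNA synthesis, and CDK inhibitors hold them back. The CIP/KIP inhibitors p21 (Cdkn1a) and p27 (Cdkn1b) bind complexes of cyclin and CDK, whereas the INK4 inhibitors p16 (Cdkn2a), p15 (Cdkn2b) and p18 (Cdkn2c) bind the kinases CDK4 and CDK6 themselves. Cdkn1a, Gadd45a and Mdm2 are known targets of the damage-responsive transcription factor p53, and the Mdm2 protein is a ubiquitin ligase that in turn keeps p53 low. The GADD45 proteins are small stress-induced proteins that bind, among others, PCNA, CDK1 and the MAP kinase kinase kinase encoded by Map3k4. Schwann cell precursors multiply along growing axons, and mature Schwann cells re-enter the cell cycle for a time after a nerve is cut.

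The stretches before the gene starts of Gadd45a, Gadd45b, Gadd45g, Cdkn2b and Cdkn1a are shown because their RSC levels were over 4 times their SCP levels; Cdkn2a, for which no fold is given, is not shown. Each is the 250 bases upstream of the RefSeq gene start on the GRCr8 rat assembly, which differs from the rn6 assembly of the deposited tables, and RefSeq held such a stretch for all 9 genes. Capitals mark the octamer ATTTGCAT, the CCAAT box CCAAT, the E-box CACGTG, the TATA box TATAAA, the cAMP response element TGACGTCA and the p53 consensus decamer, each searched on both strands.
Gadd45a (chr4:97486800-97487049, minus strand): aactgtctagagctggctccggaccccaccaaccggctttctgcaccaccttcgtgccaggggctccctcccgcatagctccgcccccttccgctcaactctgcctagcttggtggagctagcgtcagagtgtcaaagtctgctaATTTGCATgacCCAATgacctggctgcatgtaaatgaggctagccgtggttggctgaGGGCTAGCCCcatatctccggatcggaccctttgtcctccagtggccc
Gadd45b (chr7:9430719-9430968, minus strand): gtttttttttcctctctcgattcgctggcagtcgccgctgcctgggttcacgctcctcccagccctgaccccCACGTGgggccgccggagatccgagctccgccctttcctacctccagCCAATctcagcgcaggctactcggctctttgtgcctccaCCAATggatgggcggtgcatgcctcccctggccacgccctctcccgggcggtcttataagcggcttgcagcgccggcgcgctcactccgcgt
Gadd45g (chr17:13530352-13530601, minus strand): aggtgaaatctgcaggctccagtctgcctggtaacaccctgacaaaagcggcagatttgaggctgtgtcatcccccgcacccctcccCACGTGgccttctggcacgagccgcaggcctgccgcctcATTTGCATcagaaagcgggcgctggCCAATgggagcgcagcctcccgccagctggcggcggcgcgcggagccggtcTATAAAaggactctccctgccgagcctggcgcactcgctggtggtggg
Cdkn2b (chr5:109134856-109135105, minus strand): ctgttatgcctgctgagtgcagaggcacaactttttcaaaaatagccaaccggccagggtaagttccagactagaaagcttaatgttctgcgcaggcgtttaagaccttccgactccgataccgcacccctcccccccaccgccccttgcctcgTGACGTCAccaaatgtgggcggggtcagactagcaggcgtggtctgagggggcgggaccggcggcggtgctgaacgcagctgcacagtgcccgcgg
Cdkn1a (chr20:7150682-7150931, plus strand): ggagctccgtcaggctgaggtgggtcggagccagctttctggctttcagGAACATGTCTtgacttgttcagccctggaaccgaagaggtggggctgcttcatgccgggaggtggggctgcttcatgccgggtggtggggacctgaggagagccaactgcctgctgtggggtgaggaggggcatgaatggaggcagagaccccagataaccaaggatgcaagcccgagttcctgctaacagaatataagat

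The octamer was present in Gadd45a and Gadd45g, and in 1.56% of 33465 RefSeq stretches of the same length. A CCAAT box was present in 5 of the 9 genes, the 3 GADD45 genes, Cdkn1b and Mdm2, and in 34% of all stretches. The E-box stood in Gadd45b and Gadd45g (5.59% of all stretches), the TATA box in Gadd45g (12.9%) and the cAMP response element in Cdkn2b (1.59%). The p53 decamer was found in Cdkn1a and Gadd45a, and also in Cdkn2c, which is not shown (6.64% of all stretches). The GC box GGGCGG, not capitalised, was present in 7 of the 9 genes, in all but Cdkn1a and Gadd45g (30.5%), and the AP-1 site TGACTCA in none of them (4.05%). These are matches of letters and not measured binding sites.

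Expression was given as FPKM, the fragments of a transcript divided by its length and by all mapped fragments, which allows levels of different genes to be compared. FPKM of all named transcripts of a symbol were summed in each sample, and the groups were compared on log2(FPKM + 1) by limma over the 13003 genes that averaged 1 FPKM or more, as RSC minus SCP. Changes of weakly expressed genes come out too small on this scale. The absolute depth is unknown, and the relative depth, from coverage per FPKM, was 0.878 to 1.00 of the deepest sample in the SCPs and 0.789 to 0.841 in the RSCs. The embryonic globin gene Hbe1 held 13854 to 68201 FPKM in the SCPs and was listed at 0 in the RSCs. The median gene changed by -0.17 on the log2 scale, and by 0.0053 after median-of-ratios scaling.

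All 9 genes entered the test, and 7 of them averaged 1 FPKM or more in each group. Of these 7, 5 rose in the RSCs at an unadjusted p under 0.01 (Cdkn1a, Cdkn1b and the GADD45 genes), Cdkn2c and Mdm2 did not pass the threshold, and none fell. Cdkn2a and Cdkn2b, with an SCP mean under 1 FPKM, passed the filter through their RSC values alone. The filter thus fixed the direction of their difference, and their values are given as a description. Among all tested genes, 18.1% rose at this threshold and 22.4% fell, 40.5% in either direction, a share of 44.6% higher in RSCs among the genes called, which became 55.5% after median-of-ratios scaling. A log2 fold change over 2, or 4-fold, was also reached by 4 of the 7 genes (7.81% of all tested genes, against 3.78% that fell as far). In 8 of the 9 genes every RSC value lay above every SCP value, and Cdkn2c was the exception. For Cdkn2a and Cdkn2b this is again a description only, since the filter admitted them only with a higher mean in the RSCs. The other 7 genes can be set against a share of 24.9% among the tested genes, and each of them except Cdkn2c showed this separation. A listed 0 need not mean that a gene was not expressed, since Cufflinks can fail to assign reads. Erbb3, a receptor gene of the Schwann cell lineage, was listed at 0 in SCP replicate 1 and RSC replicate 2 and at 31.6 FPKM or more in the other samples.

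**Figure D1:**
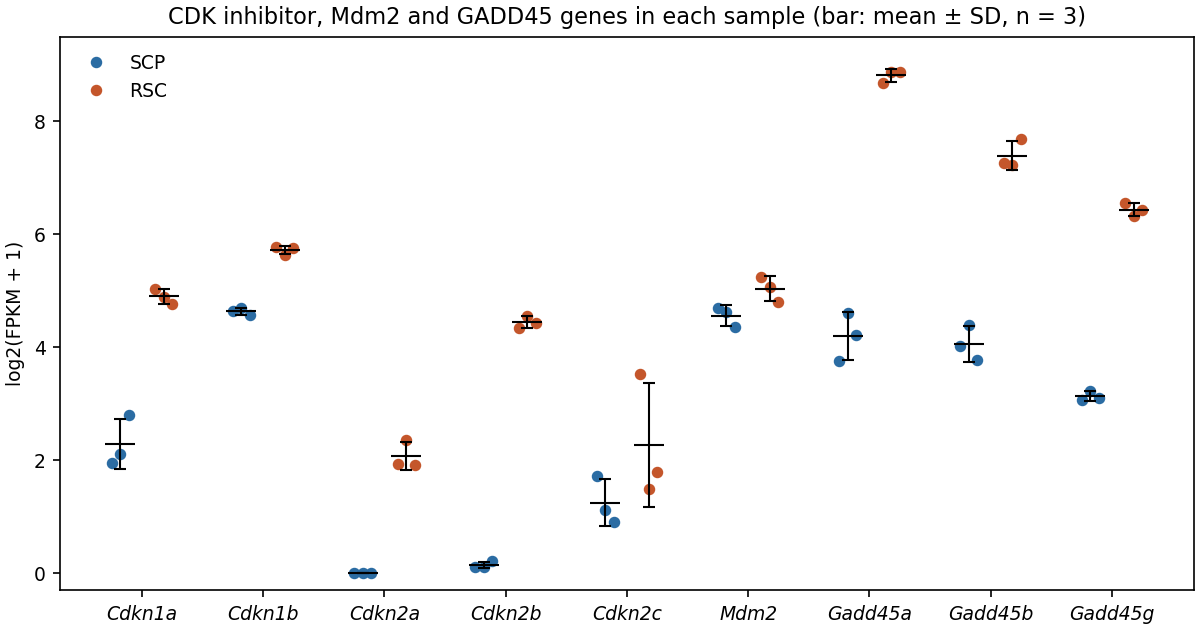
Expression of the 9 genes in each of the 6 samples as log2(FPKM + 1) on the vertical axis, with SCPs in blue, RSCs in orange, and black bars for the mean ± SD (n = 3). The groups lay apart in 8 genes and overlapped in Cdkn2c, where 1 RSC sample stood above the other two.

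The GADD45 genes showed the highest levels of the 9 in the RSCs and rose together. Gadd45a (chromosome 4 from 97782512 to 97784814 on rn6), whose product binds PCNA and CDK1, was at 12.6, 23.4 and 17.7 FPKM in SCPs against 412, 469.7 and 470.4 FPKM in RSCs. Its mean was 451 ± 33.6 FPKM in RSCs and 17.9 ± 5.43 FPKM in SCPs (SD, n = 3 each). The log2 fold change was 4.62 (SE, the standard error, 0.22, limma adjusted p = 4.6e-05). This placed the lowest RSC sample far above the highest SCP sample.

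Gadd45b (chromosome 7 from 11646283 to 11648321), a member induced early by cytokines and stress, was at 15.3, 20.1 and 12.6 FPKM in SCPs against 154, 149 and 206 FPKM in RSCs. Its log2 fold change was 3.33 (SE 0.21, limma adjusted p = 1.1e-04). Gadd45g (chromosome 17 from 13391474 to 13393219), the third member, was at 7.41, 8.39 and 7.60 FPKM in SCPs against 93.5, 79.0 and 85.2 FPKM in RSCs. Its log2 fold change was 3.30 (SE 0.11, limma adjusted p = 2.2e-05), the smallest standard error of the family. In the SCPs the ranges of Gadd45a and Gadd45b overlapped and Gadd45g lay below both, whereas in the RSCs the order Gadd45a, Gadd45b, Gadd45g held with no overlap between neighbours. With unnamed transcripts added, the log2 fold changes of Gadd45a, Gadd45b and Gadd45g were 4.42, 2.92 and 3.53.

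The sum of the 3 GADD45 genes was 35.3 to 51.9 FPKM in the SCPs and 659 to 761 FPKM in the RSCs. Gadd45a made up 35.6%, 45.1% and 46.7% of that sum in SCPs against 62.5%, 67.4% and 61.8% in RSCs. Gadd45b went from 38.5% ± 5.09 in SCPs to 23.9% ± 2.90 in RSCs (SD, n = 3 each). The shares of Gadd45a and of Gadd45b did not overlap between the groups, and each gave p = 0.1 in a two-sided exact permutation test, the smallest p that 3 samples against 3 allow. The share of Gadd45g was 16.2% to 20.98% in SCPs and 11.2% to 14.2% in RSCs, also apart, but it overlapped once unnamed transcripts were added, with an exact permutation p of 0.4.

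Of the CIP/KIP inhibitors, Cdkn1a rose more than Cdkn1b but stayed below it. Cdkn1a (chromosome 20 from 6348422 to 6358864 on rn6) was at 2.87, 3.33 and 5.94 FPKM in SCPs against 31.8, 28.7 and 26.4 FPKM in RSCs. Its log2 fold change was 2.61 (SE 0.25, limma adjusted p = 4.9e-04), and the mean in RSCs was 7.15 times that in SCPs. All of this came from the transcript XM_006256128.2, whose start lies 3032 bases downstream of that of NM_080782.3, a transcript listed at 0 in every sample. The stretch printed above lies before the RefSeq gene start on GRCr8. Whether XM_006256128.2, which carried the expression, starts there on that assembly was not checked.

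Cdkn1b (chromosome 4 from 168689046 to 168694159) had the smallest standard error of the 9 genes. It was at 24.1, 24.9 and 22.7 FPKM in SCPs against 53.6, 49.0 and 52.8 FPKM in RSCs, a log2 fold change of 1.08 (SE 0.088, limma adjusted p = 2.9e-04). The rise was 2.17-fold in the means, so that it did not reach the 4-fold threshold. Of its transcripts, XM_006237539.2 held 75.2%, 76.3% and 100% of the FPKM in SCPs against 81.2%, 80.6% and 75.4% in RSCs. In SCP replicate 3 an unnamed transcript of the same locus held another 15.1 FPKM, and with such transcripts added the log2 fold change was 0.85 (adjusted p = 0.0051, limma).

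The INK4 genes Cdkn2a and Cdkn2b lie on chromosome 5 of rn6 with 15771 bases between them, and in the SCPs Cdkn2b was below 1 FPKM and Cdkn2a was listed at 0. Cdkn2b (from 107848177 to 107857323), which encodes an inhibitor known to be induced by TGF-beta, was at 0.0834, 0.0779 and 0.156 FPKM in SCPs against 19.3, 22.5 and 20.4 FPKM in RSCs. The RSC mean was 197 times the SCP mean, and the log2 difference was 4.30 with a pseudocount of 1 and 6.68 with 0.1, so that its size rests on the pseudocount. The transcript NM_130812.2 carried all of its RSC expression. Cdkn2a (from 107823323 to 107832405) was 0 in all SCPs, a value that may be a failed estimate. The RSCs had 2.84, 4.12 and 2.78 FPKM, and no fold is given against a group listed at 0. The tables hold 1 transcript of Cdkn2a, and the gene's known products p16 and p19Arf could not be told apart. In the RSCs the level of Cdkn2b was above that of Cdkn2a with no overlap of their ranges.

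Cdkn2c (chromosome 5 from 129347731 to 129352886), which encodes p18, depended on how transcripts were counted. Its named transcript was at 2.30, 1.17 and 0.882 FPKM in SCPs against 10.5, 1.83 and 2.48 FPKM in RSCs. Cufflinks marked the 3 RSC values as based on low data and the SCP values as sound. RSC replicate 1 stood above the other two, RSC replicate 2 lay within the range of the SCPs, and the log2 fold change of 1.02 (95% interval -0.41 to 2.46, adjusted p = 0.20, limma) did not pass the threshold. Without RSC replicate 1 it was 0.40.

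Cufflinks had also assembled 2, 4 and 3 unnamed transcripts at the Cdkn2c locus in RSC replicates 1, 2 and 3, and none in any SCP sample. In each RSC sample some of them ran past the annotated end on the side where the gene starts in RefSeq, by 9012, 9046 and 8970 bases, and together these held 4.93, 4.33 and 4.402 FPKM. Shorter ones inside the gene held 14.3 FPKM in RSC replicate 2 and 11.5 FPKM in RSC replicate 3. With all of them added, Cdkn2c was at 15.4, 20.5 and 18.4 FPKM in the RSC samples, apart from the SCPs, with a log2 fold change of 3.00 (SE 0.24, limma adjusted p = 7.3e-05). The SCP values did not move, since no unnamed transcript was assembled at this locus in them, so the addition raised the RSC group alone.

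**Figure D2:**
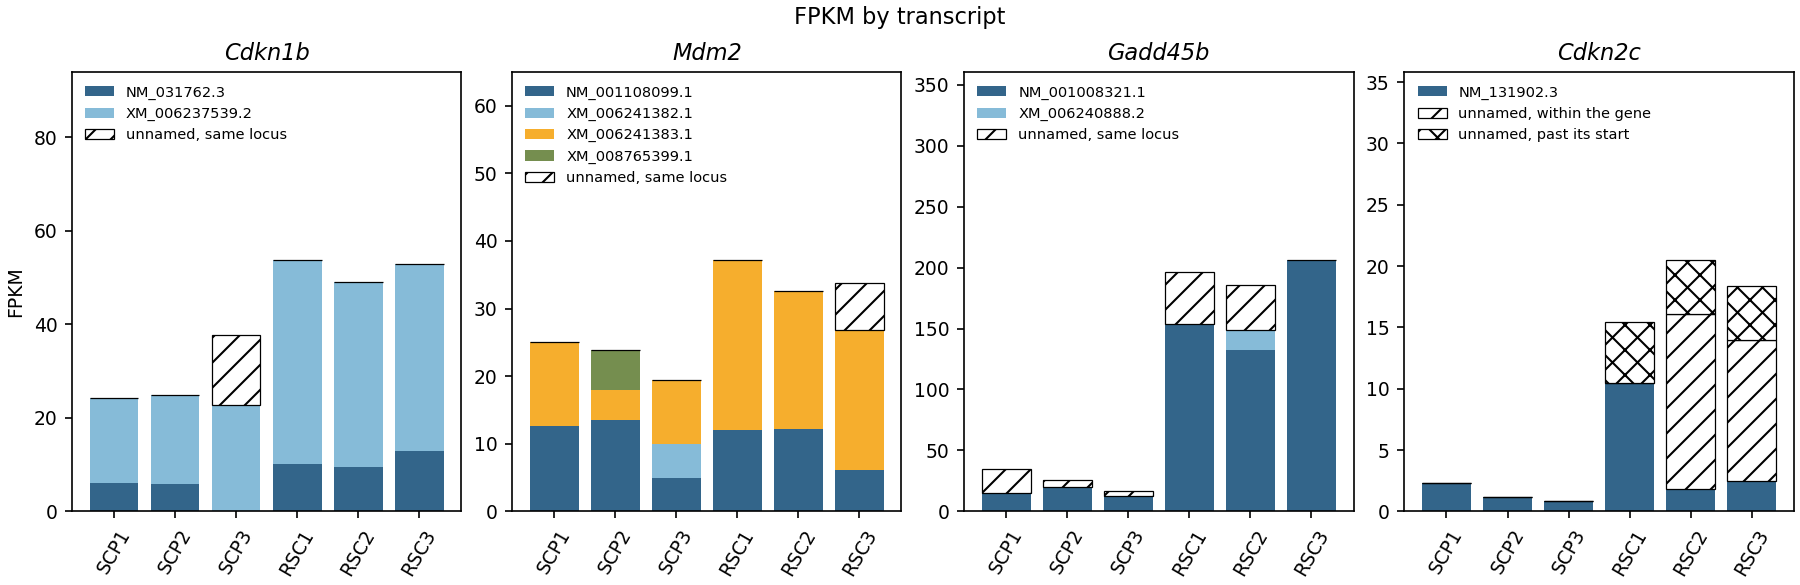
FPKM of Cdkn1b, Mdm2, Gadd45b and Cdkn2c in each sample, stacked by named transcript in colour and by unnamed Cufflinks transcripts of the same locus in hatching. Most of the Cdkn2c signal of RSC replicates 2 and 3 was in unnamed transcripts, whereas Cdkn2c bars of the SCPs held the named transcript alone.

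Mdm2 (chromosome 7 from 60719060 to 60743618) had the smallest log2 fold change of the 9 genes. It was at 25.0, 23.8 and 19.5 FPKM in SCPs against 37.1, 32.7 and 26.8 FPKM in RSCs. All RSC values lay above the SCP values, but the log2 fold change of 0.48 (95% interval 0.080 to 0.87, unadjusted p = 0.026, adjusted p = 0.054, limma) did not pass the threshold. It passed after median-of-ratios scaling, with the highest transcript alone and with unnamed transcripts added, at log2 fold changes of 0.68, 0.85 and 0.58. Of its 6 annotated transcripts 4 were above 0 in some sample. Among them, XM_008765399.1 held 5.84 FPKM in SCP replicate 2 alone, a value that is part of the sum. Cufflinks did not mark this transcript as sound in any of the 6 samples. XM_006241383.1 held 12.4, 4.47 and 9.55 FPKM in SCPs against 25.0, 20.5 and 20.7 FPKM in RSCs, with no overlap, whereas NM_001108099.1 was at 12.6, 13.5 and 4.998 FPKM in SCPs against 12.1, 12.1 and 6.09 FPKM in RSCs. How Cufflinks divides reads between such overlapping transcripts is an estimate, and these values were not tested.

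**Figure D3:**
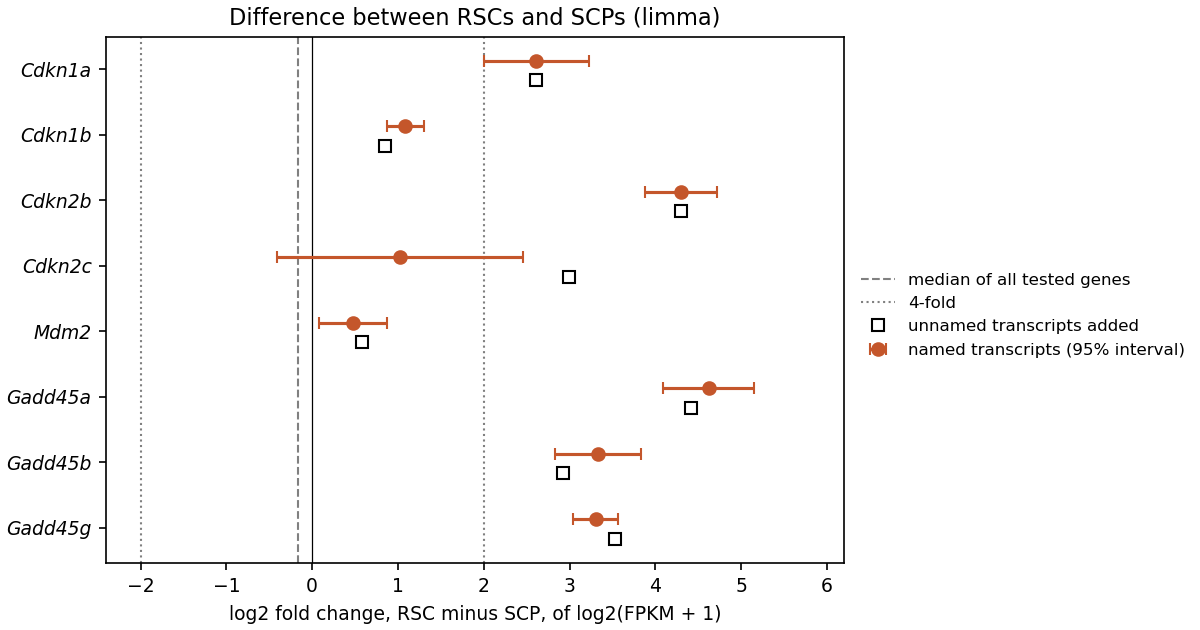
Log2 fold changes of 8 genes, RSC minus SCP, from limma on log2(FPKM + 1), with 95% intervals for named transcripts (filled circles) and values with unnamed transcripts added (open squares); dotted lines mark 4-fold and the dashed line the median gene at -0.17. Cdkn2a is left out because it was listed at 0 in the SCPs, and Cdkn2c moved most, from 1.02 to 3.00.

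Among the 5 CDK inhibitors as a set, Cdkn1b prevailed in the SCPs and shared its place in the RSCs. Their sum was 29.4, 29.5 and 29.6 FPKM in SCPs against 118, 106 and 105 FPKM in RSCs. Cdkn1b made up 81.0% ± 4.13 of it in SCPs and 47.3% ± 2.68 in RSCs (SD, n = 3 each), Cdkn1a 13.7% ± 5.55 and 26.4% ± 1.07, and Cdkn2b 0.358% ± 0.145 and 19.0% ± 2.46. The shares of Cdkn1b and of Cdkn1a lay apart between the groups (p = 0.1 each, two-sided exact permutation test, the smallest possible). The share of Cdkn2b lay apart too, which is given as a description only. Shares of the same sum depend on each other, so these are not separate results. The sum also holds Cdkn2a and Cdkn2b, so that part of the shift in the share of Cdkn1b follows from their rise.

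**Figure D4:**
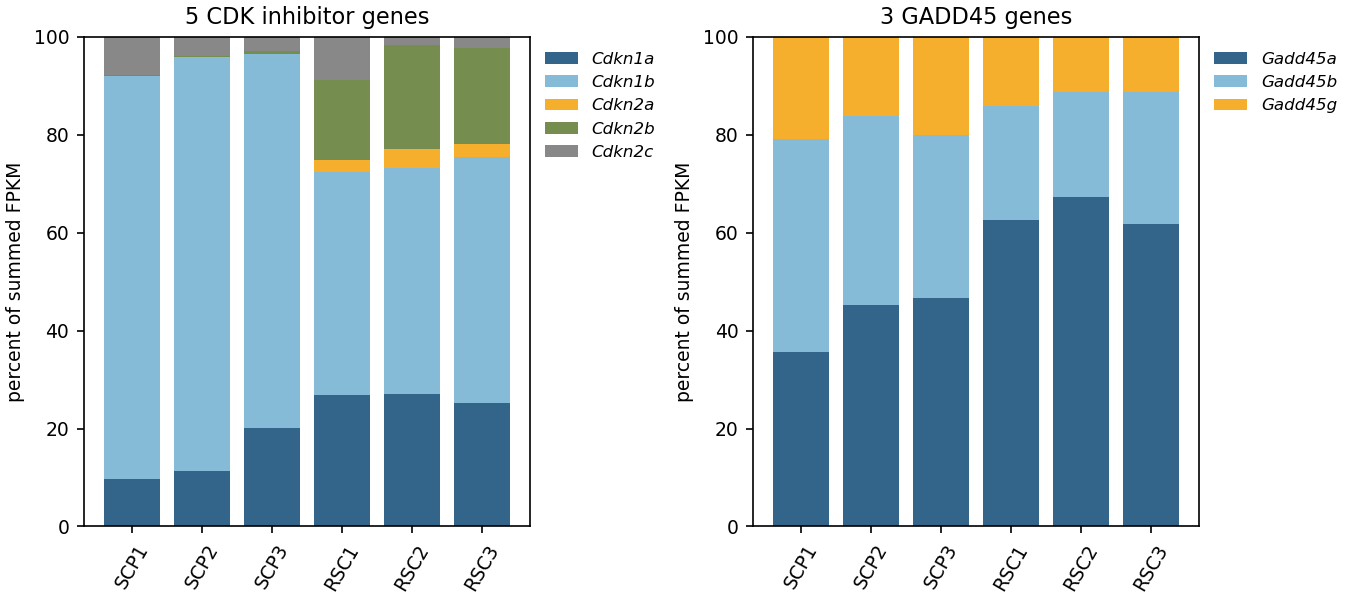
Share of each gene in the summed FPKM of the 5 CDK inhibitor genes (left) and of the 3 GADD45 genes (right), in percent, for each of the 6 samples. Cdkn1b made up 76.5% to 84.5% of the inhibitor sum in SCPs and 45.4% to 50.4% in RSCs, and Gadd45a the largest part of the GADD45 sum in every RSC sample.

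A further CIP/KIP inhibitor that is not among the 9, the imprinted gene Cdkn1c (p57), moved the other way. It was at 602, 649 and 505 FPKM in SCPs against 10.5, 3.29 and 7.94 FPKM in RSCs, a log2 fold change of -6.26 (SE 0.37, limma). With Cdkn1c counted in, the sum of inhibitors was 534 to 679 FPKM in the SCPs and 109 to 129 FPKM in the RSCs. It made up 95.2% ± 0.623 of that sum in SCPs and 6.06% ± 2.70 in RSCs, so the direction of the summed inhibitor FPKM turned with this single gene.

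Of all tested genes 22.4% fell and 18.1% rose at p under 0.01, and the lists below are set against these shares. Of 11 tested G1 cyclins, CDKs and their activators, 7 (63.6%) fell and 1 rose, with a median log2 fold change of -1.20. Cdc25a, the phosphatase that activates CDK2, changed by -2.80, and Ccne1, which encodes cyclin E1, by -2.38. Ccnd1, which encodes cyclin D1, the partner of CDK4 and CDK6, was the gene that rose, from 144 ± 17.5 FPKM in SCPs to 313 ± 19.9 FPKM in RSCs (1.11 on the log2 scale). Of 11 tested Rb and E2F family genes, 3 (27.3%) fell, near the share of all genes, and none rose (median -0.57), among them E2f6 (-2.35) and E2f7 (-1.80), both repressors of E2F targets. With unnamed transcripts added, 7 of this family fell, where 34.1% of all tested genes fell and 23.2% rose.

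Of 12 subunits and partners of the ubiquitin ligases that mark p21 and p27 for destruction, 7 (58.3%) fell, against 22.4% of all tested genes, and none rose (median log2 fold change -0.84). Skp2, the subunit that recognises p27, was at 33.9, 29.4 and 28.1 FPKM in SCPs against 1.36, 1.23 and 0.945 FPKM in RSCs, a log2 fold change of -3.85 (SE 0.16, limma). Cdc20, an activator of the anaphase-promoting complex, followed with -2.38, whereas Skp1, shared by many ligases, changed by only -0.38. Of 21 tested genes of cycling cells, 17 fell and none rose (median -1.46), among them Ccna2 (-2.32) and Bub1 (-2.097).

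The known targets of p53 other than the 9 genes were mixed. Of 28 tested, 12 rose and 2 fell at p under 0.01, with a median log2 fold change of 0.84, against 18.1% and 22.4% of all tested genes. Gdf15, a stress-induced cytokine gene, was listed at 0.327, 1.13 and 0 FPKM in SCPs against 14.4, 20.8 and 15.0 FPKM in RSCs. Igfbp3 (-2.05), which binds insulin-like growth factors, and Apaf1 (-1.07), a core apoptosome gene, fell, and Apaf1 was no longer past the threshold under 6 of the alternatives or without any 1 of the 6 samples. With unnamed transcripts added, 5 of these targets fell (34.1% of all tested genes). Of 18 regulators of p53 and damage kinases, 7 fell and none rose (median -0.74), among them Usp7 (-1.45), a deubiquitinase that acts on Mdm2.

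Of 14 Polycomb and related chromatin genes that are known to act on the Cdkn2a and Cdkn2b locus, 4 (28.6%) fell and 2 (14.3%) rose, near the shares of all tested genes, 22.4% and 18.1% (median log2 fold change 0.12, or -0.40 with unnamed transcripts added). Cbx2 (-3.39) and Pcgf2 (-2.12), subunits of Polycomb repressive complex 1, fell, and Cbx7 (1.44) and Ezh1 (1.31) rose. Cbx7 with the highest transcript alone, and Ezh1 under 5 alternatives, did not pass the threshold. Of 23 transcription factors known to act on CDK inhibitor genes, 9 rose and 4 fell (median 0.25), or 8 fell with unnamed transcripts added (34.1% of all tested genes). Cebpa went from 0.964 ± 0.178 FPKM in SCPs to 27.2 ± 4.30 FPKM in RSCs (3.84 on the log2 scale) and Cebpb from 2.203 ± 0.0301 to 25.6 ± 3.04 FPKM (3.05), while Twist1 (-1.86) and Tbx3 (-1.75), a repressor of the Cdkn2a locus, fell. Of 9 tested MAP kinase genes linked to GADD45, 3 rose and 1 fell, against 18.1% and 22.4% of all tested genes. Map3k4, the kinase that GADD45 proteins bind, rose by 0.60 on the log2 scale, and Map2k6, which acts below it, fell by 2.19. The 3 that rose, Map3k4, Mapk9 and Mapk14, did not pass with an adjusted p, with no variance trend or with a replicate block.

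**Figure D5:**
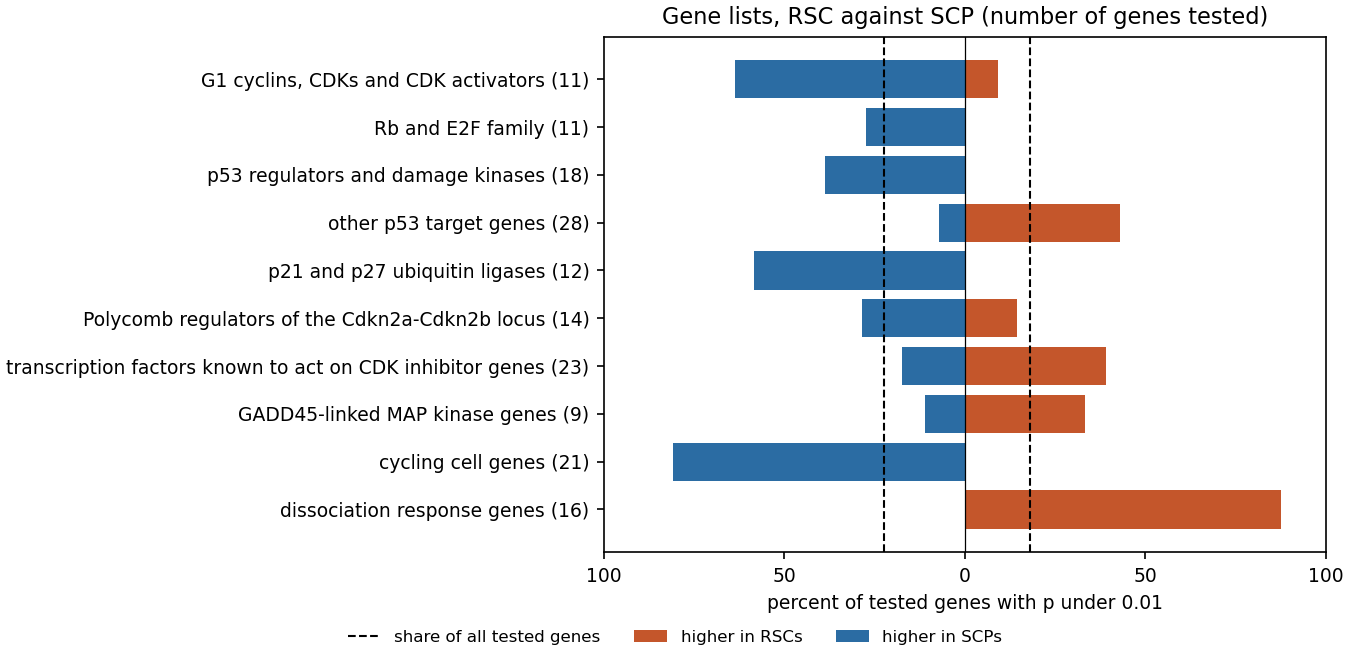
Percent of tested genes in each of 10 lists with p under 0.01 in limma, higher in RSCs to the right (orange) and higher in SCPs to the left (blue), with the number tested in brackets and dashed lines at the shares of all tested genes (18.1% and 22.4%). Genes of cycling cells stood furthest to the SCP side and dissociation response genes furthest to the RSC side.

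Markers of other cells moved with the same comparison. The Schwann cell gene Sox10 was at 179, 175 and 181 FPKM in SCPs against 149, 143 and 143 FPKM in RSCs, and S100b rose from 11.4 ± 8.06 to 850 ± 71.5 FPKM. All 10 tested leukocyte markers of 12 listed rose over 4-fold in the RSCs, against 7.81% of all tested genes. Of these 10, Ptprc, Cd14 and Itgam averaged under 1 FPKM in the SCPs and passed the filter through their RSC values alone. The 12 summed to 19.3 to 47.9 FPKM in the SCPs and 2376 to 2829 FPKM in the RSCs. Cd3e of this list was at 0 in every SCP sample, and Ptprc was at 7.33 to 11.9 FPKM in the RSCs. Cd79a, which did not enter the test, went the other way, at 0.429, 0.595 and 0.680 FPKM in SCPs against 0.171, 0 and 0 FPKM in RSCs. Of 8 fibroblast and perineurial markers 7 rose, and they summed to 676 to 1046 FPKM in the SCPs and 5449 to 8100 FPKM in the RSCs. Endothelial and mural markers summed to 94.4 to 277 FPKM in the SCPs and 129 to 196 FPKM in the RSCs, ranges that overlapped. Erythroid markers summed to 16709 to 74706 FPKM in the SCPs and 1.53 to 2.79 FPKM in the RSCs, and 3 of 7 were at 0 in all RSC samples, whereas Alas2 was at 0 in all SCPs and at 1.23 and 1.43 FPKM in RSC replicates 1 and 3. Muscle markers summed to 40.9 to 84.5 FPKM in the SCPs and 27.6 to 34.5 FPKM in the RSCs, with Myod1 and Myf5 at 0 in all RSC samples, whereas Des rose from 9.36 ± 3.69 to 24.7 ± 2.83 FPKM. Neuron markers summed to 33.6 to 60.6 FPKM in the SCPs and 23.0 to 30.8 FPKM in the RSCs, with Elavl4 and Isl1 at 0 in all RSC samples.

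Of 16 genes known to respond to tissue dissociation, 14 rose in the RSCs and none fell (median log2 fold change 2.33), led by Atf3, at 5.93 ± 1.11 FPKM in SCPs and 427 ± 29.6 FPKM in RSCs, and Ier3, at 10.5 ± 1.88 and 155 ± 14.5 FPKM. The part of leukocytes, fibroblasts and dissociation in the rise of the CDK inhibitor and GADD45 genes was not tested, and digestion, age and injury cannot be told apart in this design. In these bulk samples fewer cells of a type and less RNA per cell cannot be told apart either.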

How the data were processed

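RNA of 3 SCP and 3 RSC samples was sequenced, and the authors deposited 1 table of transcripts for each sample. Per the submitters' processing notes, reads were checked with FastQC 0.11.2, aligned to rn6 with TopHat2 2.1.0 and assembled with Cufflinks 2.2.1. The deposited values are FPKM for each transcript, and the tables also hold the coverage the authors' Cufflinks run gave, a signal used here only for relative depth. No read counts were used, so the absolute depth is unknown.

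FPKM of named transcripts were summed by symbol, and 77 transcripts in each table whose symbols had become dates were left out. Groups follow the labels. The comparison of RSCs and SCPs used log2(FPKM + 1) and the package limma (version 3.58.1, R version 4.3.3) with a variance trend, at an unadjusted p under 0.01, and p-values were adjusted by the Benjamini-Hochberg method over all 13003 genes tested, those with a mean over the 6 samples of 1 FPKM or more. The test was checked on simulated data. Shares were compared by two-sided exact permutation tests, and shares of the same sum are not independent of each other. Unnamed transcripts, 18.6% to 31.9% of the FPKM of a sample, were added to the gene of the same locus as an alternative, and other scalings, filters, pseudocounts and left-out samples were tried too.

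The 9 genes and the 18 gene lists were chosen with earlier results of these data known. All 9 genes are named, and in each list up to 2 genes with the highest and 2 with the lowest log2 fold change among those past the threshold. Marker genes are given by example, and for each of the 9 genes past the threshold the other genes with the smallest root mean square difference are named, and some genes under these rules are not reported here. Ccnd1, Skp2, Apaf1 and the others named from lists fall under that rule. Promoter stretches came from RefSeq on GRCr8, and coordinates of genes and transcripts from the rn6 tables.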

Additional observations from a re-analysis of the deposited data

How the results depend on the processing

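Cdkn1a, Cdkn1b, Gadd45a, Gadd45b and Gadd45g rose under every alternative tried and when any 1 sample was left out. The log2 difference of Cdkn2b went from 4.30 to 6.68 with a pseudocount of 0.1. Cdkn2a and Cdkn2c were not tested with a mean of at least 5 FPKM required. Mdm2 passed the threshold after median-of-ratios scaling (log2 fold change 0.68), with the highest transcript alone (0.85) and with unnamed transcripts added (0.58). Cdkn2c passed with unnamed transcripts added (3.00), which were assembled at its locus in RSC samples only. With unnamed transcripts added, 3251 of all genes were higher in RSCs and 4787 in SCPs, against 2351 and 2917 without them. With 1 sample left out, Mdm2 ranged from 0.37 to 0.60 and Cdkn2c from 0.40 to 1.41. Among genes named from lists, 509 results kept their direction and side of the threshold and 38 lost the threshold, left-out samples aside.

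The replicate numbers are shared by both groups only as numbers. Deviations of same-numbered samples correlated at 0.044, -0.0049 and 0.026, none over 0.1. With the number as a replicate block, the same 5 genes rose and Mdm2, at 0.48 on the log2 scale, again did not pass. Over all genes the block gave 2022 higher in RSCs and 2253 higher in SCPs, against 2351 and 2917.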

Other observations

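Genes whose pattern over the 6 samples was nearest to that of the CDK inhibitor and GADD45 genes were found by the root mean square difference of log2(FPKM + 1), each gene centred on its own mean. Plp2 was among the 3 nearest genes of both Gadd45b (0.17) and Gadd45g (0.095). Col8a1 was nearest to Gadd45a (0.12), Dmbt1 to Gadd45g (0.061), Ccl9 to Cdkn1a (0.095), Hr to Cdkn2a (0.065), and Srpx and Col7a1 to Cdkn2b (0.074 each). With 3 samples in each of 2 groups, such likeness follows mostly the difference between the groups.

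Cufflinks also placed unnamed transcripts inside some of these genes as loci of their own, which were not added to them. Inside Cdkn1b, one held 31.4 FPKM in RSC replicate 2 and another 19.2 FPKM in SCP replicate 3. Inside Cdkn2b, one held 6.97 FPKM in RSC replicate 2, and inside Cdkn2c, one held 4.60 FPKM in the same sample.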
